A study of Mus musculus with 6 samples.

Results

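Wild type adaptive regulatory T (aTreg) cells were described from the 3 libraries that the labels call wild type, out of 6 libraries in the study. They were chosen by the label alone and by no measured value. The description covers 17281 protein-coding genes of the 25759 gene identifiers in the table. The wild type cells came from normal B6 (C57BL/6) mice, aged 8 to 12 weeks, that carry a Foxp3GFP reporter transgene. Total lymph node and spleen cells were cultured for 3 days. The medium held 2 µg/ml ConA, 10 ng/ml IL-2 and 3 ng/ml TGF-beta. The CD4+ Foxp3GFP+ cells were sorted from this culture. It began from unsorted cells, so cells that had Foxp3 before the culture are not told apart from those that gained it. ConA is a lectin that stimulates T cells through their surface glycoproteins. The 3 other libraries come from mice with a Cd4-cre deletion of BMPR1a and were not used. Whether the 3 wild type libraries had an animal or a culture each is not stated, and the spread between them may be technical.

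Regulatory T cells are CD4 T cells that restrain immune responses, and the transcription factor Foxp3 defines them. They read IL-2 through a high-affinity receptor that includes Il2ra (CD25), and they carry the inhibitory receptor Ctla4, which competes with the costimulatory receptor Cd28 for its ligands. Those that form from conventional T cells outside the thymus do so when antigen receptor signals meet TGF-beta and IL-2. Helper T cell types are named by their own factors: Tbx21 for Th1, Gata3 for Th2 and Bcl6 for follicular helper cells.

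Values are FPKM (fragments per unit of transcript length and of library size), which are per length and so allow levels to be set between genes. Values given as 3 in a row are replicates 1, 2 and 3, and errors are the SD over n = 3 libraries. Rank 1 is the highest mean among the 17281 genes. A gene is called expressed at a mean of at least 1 FPKM, and off where it is below 0.1 FPKM in each library. Depth, read from the smallest steps of the values, was about 29700000, 30300000 and 37900000 fragments. At that depth 3 fragments on a transcript of 2000 bases give 0.0506, 0.0495 and 0.0396 FPKM, a limit for counting error alone.

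The 3 libraries were alike over most genes, and replicates 1 and 2 stood apart in opposite directions in myeloid genes. Pearson's r of log2(FPKM + 1) across genes, which are not independent replicates, was 0.994 to 0.996 between libraries. The expressed macrophage and monocyte markers had a median log2 deviation of 0.96 in replicate 1, of -1.04 in replicate 2 and near 0 in replicate 3. Summed over the 8 markers of that list, the level was 121, 25.1 and 51.3 FPKM. For the 8 T cell markers the sum was 2441, 2278 and 2301 FPKM. The part of myeloid cells in other differences between the libraries was not tested.

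The start regions of the genes that the description turns on are printed here to show how their CpG content differs. Each is the 250 bases before the RefSeq start on build GRCm38.p6, 5′ to 3′ on the gene's strand, with every CG dinucleotide in capitals. The first 3 belong to markers of the cell, the next 2 to genes among the 15 highest named by rule. The last 2 belong to cytokines that were low or listed at 0. The regions are, in the same order, chrX:7579426-7579675 (plus strand), chr2:11642542-11642791 (plus), chr1:60908775-60909024 (plus), chr9:78481725-78481974 (minus), chr7:45128746-45128995 (minus), chr3:37125955-37126204 (minus) and chr11:53720544-53720793 (plus).
Foxp3: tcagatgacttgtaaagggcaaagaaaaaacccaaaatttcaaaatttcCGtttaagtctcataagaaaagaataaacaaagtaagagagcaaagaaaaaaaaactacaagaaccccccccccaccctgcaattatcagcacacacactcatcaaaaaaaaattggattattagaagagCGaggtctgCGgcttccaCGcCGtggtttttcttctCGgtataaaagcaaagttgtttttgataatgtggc
Il2ra: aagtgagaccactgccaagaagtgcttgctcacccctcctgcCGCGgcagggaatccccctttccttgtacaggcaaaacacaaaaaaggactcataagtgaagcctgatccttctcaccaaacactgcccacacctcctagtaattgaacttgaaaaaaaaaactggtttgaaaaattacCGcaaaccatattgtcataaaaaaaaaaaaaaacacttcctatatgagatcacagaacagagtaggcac
Ctla4: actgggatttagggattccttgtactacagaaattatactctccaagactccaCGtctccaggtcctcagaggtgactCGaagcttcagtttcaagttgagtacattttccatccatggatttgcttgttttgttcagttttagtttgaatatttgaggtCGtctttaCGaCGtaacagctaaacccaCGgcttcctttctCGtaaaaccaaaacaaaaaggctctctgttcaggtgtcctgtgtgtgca
Eef1a1: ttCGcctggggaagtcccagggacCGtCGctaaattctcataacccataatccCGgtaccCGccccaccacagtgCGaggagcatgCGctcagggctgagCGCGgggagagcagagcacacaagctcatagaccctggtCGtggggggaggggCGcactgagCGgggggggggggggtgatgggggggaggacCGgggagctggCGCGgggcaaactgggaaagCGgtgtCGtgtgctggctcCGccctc
Rpl13a: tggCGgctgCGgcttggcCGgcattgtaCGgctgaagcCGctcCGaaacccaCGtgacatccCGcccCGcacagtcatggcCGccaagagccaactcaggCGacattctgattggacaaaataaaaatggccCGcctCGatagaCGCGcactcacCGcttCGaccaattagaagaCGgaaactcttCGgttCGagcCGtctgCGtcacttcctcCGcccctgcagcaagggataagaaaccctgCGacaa
Il2: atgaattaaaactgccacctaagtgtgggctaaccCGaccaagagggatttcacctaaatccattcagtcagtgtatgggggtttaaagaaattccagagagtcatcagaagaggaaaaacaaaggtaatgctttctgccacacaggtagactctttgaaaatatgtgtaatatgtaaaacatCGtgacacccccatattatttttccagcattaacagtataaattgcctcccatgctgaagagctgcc
Il5: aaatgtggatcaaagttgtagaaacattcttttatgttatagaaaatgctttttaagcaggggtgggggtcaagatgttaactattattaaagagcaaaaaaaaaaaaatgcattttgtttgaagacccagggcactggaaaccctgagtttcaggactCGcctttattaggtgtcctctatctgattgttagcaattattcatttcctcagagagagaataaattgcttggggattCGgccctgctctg
The stretch of Rpl13a, a protein of the large ribosomal subunit, holds 24 CG dinucleotides and that of the translation factor Eef1a1 holds 18. The stretches of Ctla4, Foxp3 and Il2ra hold 7, 6 and 3, and those of Il2 and Il5 hold 2 each. Observed over expected CG, which allows for base composition, was 1.13 for Rpl13a, 0.684 for Foxp3, 0.652 for Eef1a1 and 0.625 for Ctla4. It was 0.284 for Il2ra, 0.235 for Il5 and 0.196 for Il2. By this ratio the order did not follow the level: Foxp3 was above Eef1a1, and Foxp3 and Il2ra differed at overlapping FPKM. The RefSeq start of Foxp3 lies 6032 bases from the outermost GENCODE start, that of Eef1a1 7427 bases and that of Ctla4 22025 bases, so these are starts within longer annotated genes.

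Of the 17281 genes, 10265 (59.4%) were expressed, 4384 (25.4%) were off and 1620 (9.37%) were listed at 0 in each of the 3 libraries. GENCODE M21 holds 21951 protein-coding genes, and those without a row enter none of these shares. The 59.4% and 25.4% are the shares to set beside the counts of expressed and off genes of the lists below. The single libraries held 10289, 10236 and 10230 genes at 1 FPKM or more, and 10022 genes reached it in all 3. The median was 3.67 FPKM over all protein-coding genes and 14.7 FPKM over expressed genes. At the top, 790 genes reached 100 FPKM and 107 genes reached 1000 FPKM. The 100 highest genes held 41.9%, 41.3% and 41.8% of the summed protein-coding FPKM. They were 68 ribosomal proteins, 11 mitochondrially encoded proteins, 6 genes of the actin cytoskeleton, 3 translation factors and 12 others. Eef1a1, which brings aminoacyl-tRNA to the ribosome, stood at 9141 ± 257 FPKM, rank 2. Rank 1 was mt-Atp8, whose 204-base transcript overlaps mt-Atp6, so its 14211 ± 2054 FPKM is an uncertain estimate. Tmsb4x, which binds actin monomers, stood at 5283 ± 467 FPKM (rank 8). B2m, the light chain of MHC class I, stood at 3028 ± 41.9 FPKM. Many genes of these groups have near-identical pseudogene copies, between which the counting could split fragments.

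**Figure D1:**
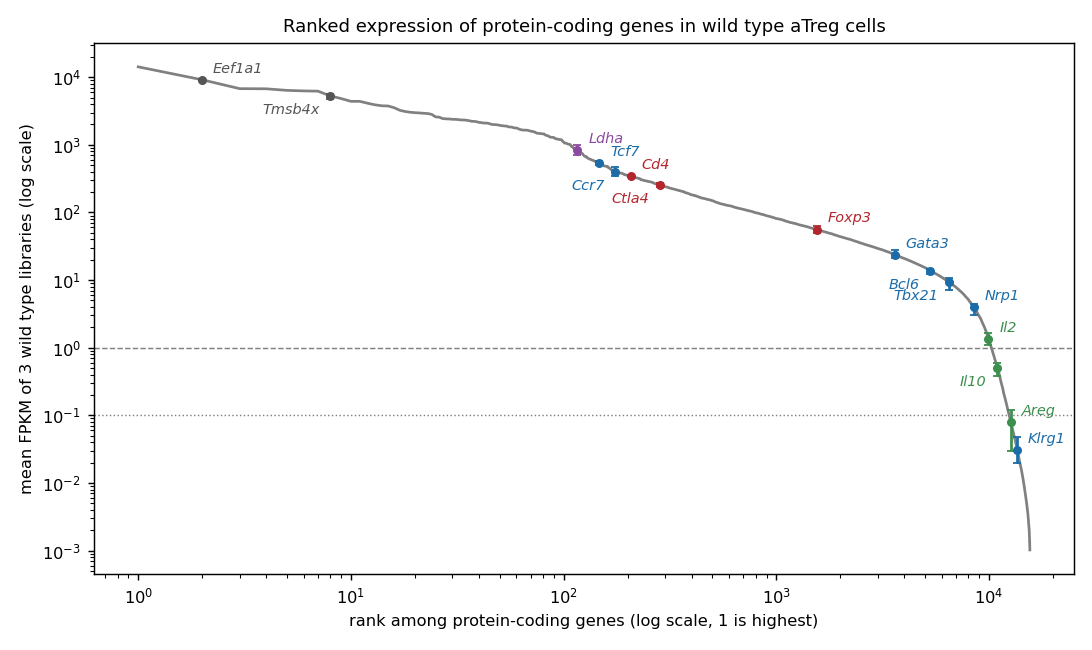
Mean FPKM of the 3 wild type libraries (y, log scale) against rank among protein-coding genes (x, log scale, 1 is highest; means below 0.001 are not drawn), with bars from the lowest to the highest library. Cd4 (343 FPKM) and Ctla4 (254) lie in the upper shoulder, Foxp3 (55.9) lower, and Il10, Areg and Klrg1 below the dashed line at 1 FPKM; the dotted line marks 0.1 FPKM.

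All 4 markers of the sorted cell were present in each library. Cd4 and the Foxp3 reporter were used in the sort, so these 2 genes check the label and are no finding. Foxp3 (ENSMUSG00000039521, chrX:7573644-7595245, plus strand) stood at 55.9, 49.4 and 62.3 FPKM, a mean of 55.9 ± 6.43 and rank 1546, so that 91.1% of protein-coding genes were lower. Its annotated span overlaps the end of Ccdc22 (chrX:7593809-7605517, minus strand), at 81.5, 70.4 and 151 FPKM, and fragments in the shared bases cannot be told apart unless strand was used. Cd4 (ENSMUSG00000023274, chr6:124864692-124888221), the coreceptor for MHC class II, stood at 341, 329 and 359 FPKM and rank 207. Ctla4 (ENSMUSG00000026011, chr1:60887000-60915832) stood at 238, 275 and 249 FPKM and rank 283. These 2 surface proteins were above Foxp3 in every library, with no overlap. Il2ra (ENSMUSG00000026770, chr2:11642807-11693193) stood at 48.3, 75 and 46.4 FPKM, a mean of 56.6 ± 16 and rank 1515. Its replicate 2 was the high one, and its 3 values overlapped those of Foxp3.

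Of 20 transcription factors of Treg cells, 19 were expressed, with a median of 49.5 FPKM against 3.67 FPKM for all genes. Tcf7 (TCF-1), a factor of naive and memory T cells, led at 512, 499 and 584 FPKM and rank 147. Satb1, a chromatin organiser, followed at 279.5 ± 9.91 FPKM, then Ikzf1 (Ikaros) at 226 ± 5.68 and Lef1, the close relative of Tcf7, at 152 ± 13.9. These 4 stood in this order with no overlap between neighbours, and all were above Foxp3. A second group of factors lay at the level of Foxp3: Batf at 56.2 ± 3.68, Bach2 at 50.6 ± 6.9, Runx3 at 49.5 ± 9.8 and Foxo1 at 49.5 ± 2.59 FPKM. In this group neighbours overlapped, so no order among them can be read. Within the Ikaros family, Ikzf1 held 58.1% ± 2.17 of the summed FPKM. Ikzf2 (Helios), which marks most Treg cells that form in the thymus, stood at 32.9, 21.4 and 22.3 FPKM. Ikzf4 (Eos), which acts with Foxp3 in repression, stood at 16.2, 10.4 and 12.3 FPKM and did not reach Ikzf2 in any library. Prdm1 (Blimp-1), a factor of effector Treg cells, was the member below 1 FPKM, at 0.348, 0.614 and 0.504 FPKM. In the FoxP family Foxp1 stood at 78.7 ± 6.68 FPKM, above Foxp3 with no overlap, and Foxp2 was off.

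The factors that name helper lineages differed widely in level. Gata3 stood at 28.2, 21.3 and 21.6 FPKM and rank 3615, the highest of the 3 named here. Bcl6 was next at 14.5, 12.4 and 14.7 FPKM, below Gata3 in every library. Tbx21 (T-bet) followed at 10.8, 9.92 and 7.14 FPKM, below Bcl6 in every library. So the order Gata3, Bcl6, Tbx21 held without overlap between neighbours. Maf (8.59 ± 0.762 FPKM) and Eomes (6.93 ± 2.03 FPKM) overlapped Tbx21. Ahr, the aryl hydrocarbon receptor, stood at 2.81 ± 0.441 FPKM and Rora at 1.7 ± 0.167 FPKM, both below Eomes without overlap. Irf4, which is induced by antigen receptor signals, stood at 26.6, 34.3 and 24.8 FPKM. Zbtb7b (ThPOK), which fixes the CD4 fate, stood at 48.5 ± 2.67 FPKM and overlapped Runx3, which supports the CD8 fate. Zbtb16 (PLZF), the factor of innate-like T cells, was off in each library.

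**Figure D2:**
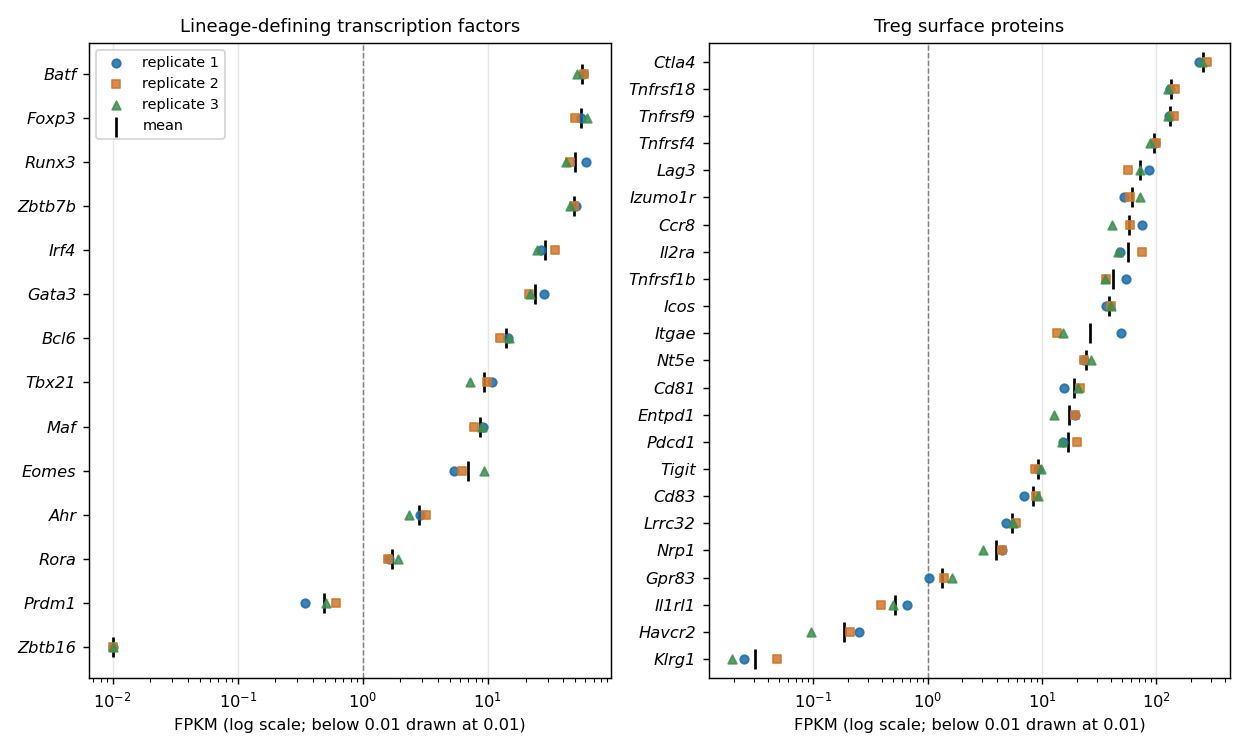
FPKM in each wild type library (x, log scale) of 14 lineage-defining transcription factors (left) and the 23 Treg surface proteins (right), ordered by mean (black bar); the dashed line marks 1 FPKM. Foxp3 and Batf lie together at the top of the left panel and Prdm1 and Zbtb16 below the line; on the right Itgae shows replicate 1 apart at 49.5 FPKM.

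Treg surface proteins were expressed in 20 of 23 cases, with a median of 24.2 FPKM. The highest below Ctla4 were 3 receptors of the TNF family: Tnfrsf18 (GITR) at 135 ± 9.92, Tnfrsf9 (4-1BB) at 133 ± 8.06 and Tnfrsf4 (OX40) at 94.9 ± 5.9 FPKM. Lag3, which binds MHC class II, stood at 86.6, 56.7 and 71.7 FPKM. Izumo1r (folate receptor 4) stood at 52.5, 58.5 and 72 FPKM and Ccr8, a chemokine receptor of activated Treg cells, at 74.5, 58.4 and 41 FPKM. These 3 overlapped one another. Itgae (CD103), the integrin chain that binds E-cadherin and that TGF-beta induces, was the least even of the list, at 49.5, 13.4 and 15.2 FPKM. Replicate 1 alone was high, and the mean of 26 FPKM was 14.3 FPKM without it. Nt5e (CD73) stood at 24.2 ± 2.0 FPKM and Entpd1 (CD39) at 17.2 ± 3.82 FPKM, the pair of enzymes that turn extracellular ATP into adenosine. Tigit stood at 9.23 ± 0.558 FPKM and Lrrc32 (GARP), which tethers latent TGF-beta, at 5.44 ± 0.595 FPKM. Nrp1, a surface protein typical of thymic Treg cells, was low at 4.44, 4.42 and 3.02 FPKM, rank 8498. At the bottom Il1rl1 (ST2) stood at 0.663, 0.386 and 0.50, Havcr2 (TIM-3) at 0.252, 0.209 and 0.0948 and Klrg1 at 0.0245, 0.0483 and 0.0195 FPKM. Klrg1, a receptor of terminally differentiated cells, was thus off.

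Mediators of suppression were uneven, with 11 of 16 expressed and a median of 6.42 FPKM. Lgals1 (galectin-1), a lectin that T cells secrete, was the highest at 818, 654 and 437 FPKM, rank 130, with replicate 3 lowest. Tgfb1 stood at 77.6, 68.2 and 63.3 FPKM. It held 99.3% ± 0.167 of the FPKM of the 3 TGF-beta genes, with Tgfb3 at 0.442 ± 0.0873 FPKM and Tgfb2 off. Gzmb (granzyme B), a serine protease of cytotoxic granules, stood at 8.8, 23.9 and 12.1 FPKM, with replicate 2 high. Ebi3 stood at 3.91, 3.48 and 3.2 FPKM and Il12a at 0.887, 0.465 and 0.903 FPKM, the pair that forms IL-35, and Ebi3 was higher in every library. Il10, the cytokine most often named with Treg function, was below 1 FPKM in each library at 0.589, 0.555 and 0.383 FPKM, rank 10945. Areg, a growth factor of tissue Treg cells, stood at 0.0297, 0.0881 and 0.118 FPKM.

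Genes of naive T cells were high in these Foxp3-sorted cells. Of 17 such genes 16 were expressed, and 9 reached 100 FPKM, with a median of 125 FPKM. After Tcf7, the lymph node homing receptor Ccr7 stood at 462, 349.6 and 387 FPKM, rank 175. S1pr1, the receptor by which cells leave lymph nodes, stood at 125 ± 10.8 FPKM, and its factor Klf2 at 90.4 ± 14.4 FPKM. The IL-7 receptor chain Il7r was lower, at 46.1, 40.4 and 38.5 FPKM, and Bcl2, which sustains resting cells, was at 13.4 ± 1.39 FPKM. Ccr9, a gut homing receptor, was the member below 1 FPKM, at 0.46 ± 0.102 FPKM.

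All 26 listed genes of the T cell receptor and its proximal signalling passed 10 FPKM, with a median of 156 FPKM. Cd3g led at 534 ± 24 FPKM, followed by the phosphatase Ptprc (CD45) at 436 ± 29.6 and the kinase Lck at 403 ± 15.1 FPKM. Cd3e was the lowest of the CD3 chains, at 212 ± 16.4 FPKM. Bcl10 and Malt1, which lead to NF-kappaB, lay lowest, at 31.2 ± 0.804 and 29.8 ± 1.77 FPKM. The median CV, the SD over the mean, of this list was 0.0577, against 0.0995 for all expressed genes. Cd28 had the smallest CV of 6122 genes at 10 FPKM or more kept by transcript length and kind of symbol, at 83, 83.1 and 83.1 FPKM. Ctla4 was thus above Cd28 in every library. Among other costimulatory receptors Cd2 stood at 391 ± 10.4 and Cd27 at 236 ± 27.4 FPKM. Icos was at 38.8 ± 2.14 FPKM and Cd40lg, the T cell help ligand, at 24.9 ± 5.94 FPKM. Of 13 inhibitory receptors 11 were expressed, with Cd96 at 147 ± 18.9, Vsir (VISTA) at 68.7 ± 7.93 and Pdcd1 (PD-1) at 16.7 ± 2.83 FPKM. Activation genes were all expressed, 24 of 24, with Junb at 108 ± 4.76, Nr4a1 (Nur77) at 81.7 ± 4.37 and Myc at 43.8 ± 2.03 FPKM. Lower in that list were Fos at 3.12, 6.03 and 8.8 FPKM and Egr2 at 6.03, 3.39 and 5.11 FPKM.

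The 4 helper lists differed in which layers were present. Of Th1 genes 12 of 14 (85.7%) were expressed, of Tfh genes 12 of 14 (85.7%), of Th17 genes 10 of 15 (66.7%) and of Th2 genes 8 of 15 (53.3%). Over all protein-coding genes the share was 59.4%, and the Th17 and Th2 lists lay near it. The medians of the 4 lists, in the same order, were 8.83, 10.4, 1.7 and 1.13 FPKM, beside 3.67 FPKM for all genes. In the Th1 list the signal transducer Stat4 stood at 72.7 ± 3.02 FPKM. The IL-12 receptor chain Il12rb2 stood at 37.2, 33.6 and 29.2 FPKM and the chemokine receptor Cxcr3 at 39.7, 24 and 23 FPKM. Ifng, the product of Th1 cells, stood at 1.47, 3.38 and 1.57 FPKM, with replicate 2 high. In the Th17 list Stat3 stood at 137 ± 2.85 FPKM, but Il23r, the receptor that sustains Th17 cells, was off at 0.0658, 0.0898 and 0.0313 FPKM, and so was Il1r1. Il17a stood at 1.53, 1.51 and 1.46 FPKM and Il17f at 2.04, 1.21 and 1.33 FPKM. In the Th2 list Stat6 stood at 72 ± 4.23 and Il4ra at 41.6 ± 2.51 FPKM. Il4 stood at 0.74, 0.834 and 1.82 FPKM, Il13 at 0.236, 0.35 and 0.211 FPKM, and Il5 was listed at 0. Pparg, Ccr3 and Ptgdr2, genes of late Th2 cells, were off. In the Tfh list the adaptor Sh2d1a (SAP) led at 108 ± 11.1 FPKM. Cxcr5, which guides cells to follicles, stood at 4.62, 4.88 and 6.99 FPKM and Il21 at 0.105, 0.282 and 0.192 FPKM. Ascl2 was listed at 0.

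Secreted and membrane-bound cytokines were mostly low. Of 62 cytokine genes 29 were expressed, 8 reached 10 FPKM and 15 were off, with a median of 0.638 FPKM. Ltb (lymphotoxin beta), a membrane ligand that organises lymphoid tissue, led at 338, 351 and 333 FPKM, rank 209. Mif followed at 215, 269.9 and 249 FPKM and Il16 at 101, 91.9 and 98.5 FPKM, then Tgfb1. Each of these 4 stood apart from its neighbour without overlap. Below them came Cd40lg, Lta at 13.6, 24.3 and 11 FPKM and Tnfsf8 (CD30 ligand) at 11.1, 15.7 and 15.6 FPKM. Tnfsf11 (RANKL), the osteoclast factor, stood at 7.67, 14.9 and 6.15 FPKM, with replicate 2 high as for Lta. Il1b, a product of myeloid cells, stood at 20.3, 6.8 and 8.84 FPKM and had its high value in replicate 1, as the macrophage markers did. Il2, whose protein was supplied in the medium, stood at 1.3, 1.66 and 1.1 FPKM and rank 9946. Ifng, Il17a, Il2 and Il4 thus all had means between 1 and 3 FPKM. Tnf stood at 6.48, 4.43 and 5.63 FPKM and Il6 at 1.07, 1.39 and 1.38 FPKM. Listed at 0 in all 3 libraries were Il5, Il19, Il25, Il33, Il34 and Tslp, of which Il25, Il33 and Tslp are known as epithelial alarm signals.

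Chemokines were expressed in 14 of 33 cases and off in 12. Xcl1, which attracts cross-presenting dendritic cells, stood at 76.6, 43 and 34.1 FPKM and Ccl5 (RANTES) at 43.2, 22.4 and 44.5 FPKM. Next came Ccl3 at 17.8, 11.7 and 17.3 FPKM and Ccl4 at 15.3, 9.05 and 9.52 FPKM. Ccl3 was the higher in each library, but their ranges overlapped. Ccl22 had a mean of 6.69 FPKM, and 6.89, 7.08 and 6.09 FPKM without replicates 1, 2 and 3, so it was nearly even. Ccl6 had a mean of 5.89 FPKM, and 4.4, 7.26 and 6 FPKM without them. Cxcl3 and Cxcl16, picked after their values were seen, stood at 6.82, 2.22 and 3.95 FPKM and at 5.09, 1.22 and 2.14 FPKM. Both were highest in replicate 1 and lowest in replicate 2. The expressed chemokines had a median CV of 0.421. The stromal chemokines Ccl19 and Cxcl13 were listed at 0, while Ccr7, the receptor of Ccl19, had rank 175.

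**Figure D3:**
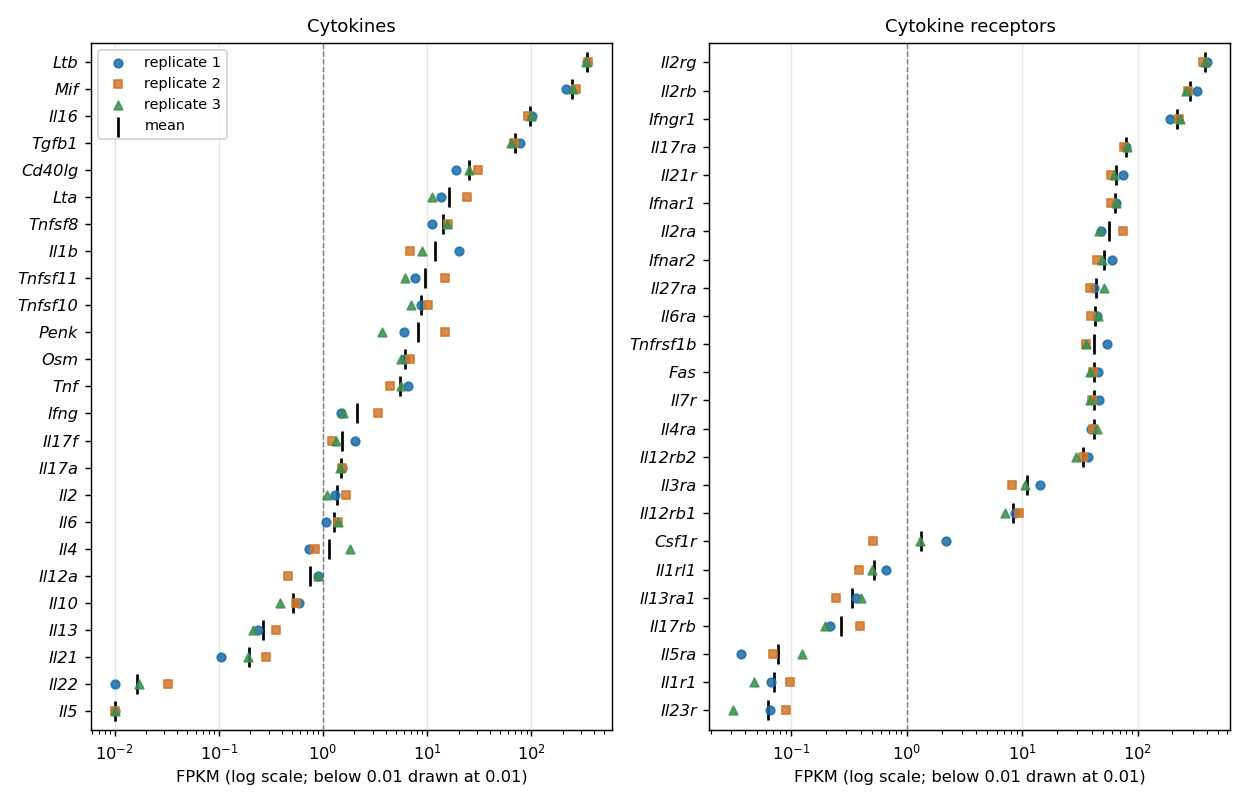
FPKM in each wild type library (x, log scale) of 25 cytokines (left) and 24 cytokine receptors (right), ordered by mean (black bar); values below 0.01 are drawn at 0.01 and the dashed line marks 1 FPKM. Ltb, Mif, Il16 and Tgfb1 lead the left panel, and on the right Il2rg, Il2rb and Ifngr1 lie above 100 FPKM.

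Of 62 cytokine receptor chains 35 (56.5%) were expressed, beside 59.4% of all protein-coding genes, and 23 reached 10 FPKM. The shared gamma chain Il2rg led at 397, 367 and 381 FPKM, rank 186. The signalling beta chain Il2rb stood at 325, 271 and 264 FPKM. Il2ra was the lowest of the 3 IL-2 receptor chains in every library, and Il2rg was the highest. Ifngr1 stood at 191, 229.6 and 231 FPKM, Il17ra at 78.9 ± 2.78 and Il21r at 65.2 ± 8.17 FPKM. The cells thus held more message for the receptors of IFN-gamma, IL-17 and IL-21 than for Ifng, Il17a or Il21 themselves, in every library. The type I interferon receptor chains Ifnar1 and Ifnar2 stood at 63.1 ± 3.88 and 51.3 ± 8.1 FPKM. Il6ra stood at 42.9 ± 3.13 FPKM, whereas Il1r1 was off at 0.0704 ± 0.0249 FPKM. Il22ra2 was listed at 0. Csf1r, the macrophage growth factor receptor, stood at 2.2, 0.512 and 1.31 FPKM and was highest in replicate 1.

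Receptors of the TGF-beta superfamily were led by Tgfbr2, the ligand-binding chain for TGF-beta, at 63.6, 56.6 and 64.7 FPKM, rank 1392. Tgfbr1, the signalling chain, stood at 8.83, 9.02 and 7.95 FPKM, below Tgfbr2 in every library. Acvrl1 stood at 7.6 ± 1.39 FPKM and overlapped both Tgfbr1 and Acvr1b, which stood at 6.52 ± 0.486 FPKM. Bmpr1a, which binds bone morphogenetic proteins and is the gene deleted in the study's other group, stood at 1.39, 2.34 and 1.31 FPKM, rank 9730. Its type II partner Bmpr2 stood at 1.54, 2.15 and 2.0 FPKM and overlapped it. In all, 8 of 13 receptors (61.5%) were expressed, near the 59.4% of all protein-coding genes. Of the SMAD transducers, the shared Smad4 stood at 29.8 ± 0.923 FPKM and the inhibitory Smad7 at 24.7 ± 3.84 FPKM. Smad2, a transducer of TGF-beta, stood at 22.7 ± 2.29 FPKM and was above Smad3 at 5.66, 8.57 and 8.42 FPKM. The BMP transducers Smad1 and Smad5 stood at 4.78 ± 0.50 and 6.27 ± 0.941 FPKM, and Smad9 was off. Id3, a target of both TGF-beta and BMP signals, stood at 48.1, 36.3 and 33.9 FPKM and Id1 at 0.52, 0.48 and 0.191 FPKM.

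Chemokine receptors fell from Ccr7 to low levels within a few genes, with 9 of 23 expressed. Ccr8, Cxcr3 and Cxcr4 (10.1 ± 1.09 FPKM) followed Ccr7 in that order, without overlap between neighbours. Ccr4, a skin homing receptor, stood at 2.48, 5.27 and 2.54 FPKM and Ccr6 at 3.67, 5.8 and 6.12 FPKM. Cx3cr1, a receptor of monocytes and effector cells, stood at 1.3, 0.517 and 0.467 FPKM. Integrins were led by Itgb7 at 223 ± 18.3 and Itgb2 at 215 ± 16.4 FPKM, beta chains whose values overlapped. Itgal, the partner of Itgb2 in LFA-1, stood at 112, 114 and 116 FPKM. Itgae and Itga4 (12 ± 1.88 FPKM), both partners of Itgb7, were below it in every library. Among innate sensors Tmem173 (STING) stood at 84.1 ± 1.54 FPKM and Tlr1 at 37 ± 3.52 FPKM, while Tlr3, Tlr5 and Tlr11 were off.

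Signal transducers of cytokines were present throughout. All 7 STAT genes passed 10 FPKM, and Stat2 was the lowest at 32.5 ± 3.76 FPKM. Stat5b and Stat5a, which carry the IL-2 signal, stood at 81.7, 90 and 90.1 FPKM and at 47.9, 50.7 and 48.9 FPKM, with Stat5b higher in every library. All 4 Janus kinases passed 10 FPKM, and Jak1 held 53.3% ± 2.19 of their sum. Jak3, which pairs with the shared gamma chain, stood at 86.6 ± 8.84 FPKM. All 5 NF-kappaB subunits passed 10 FPKM, with Nfkb1 at 141 ± 3.07 and Rel, a factor that Foxp3 induction needs, at 15.8 ± 0.988 FPKM. Of the calcium-dependent NFAT factors Nfatc3 (49.9 ± 2.32 FPKM) and Nfatc1 (42.9 ± 5.05 FPKM) led and Nfatc4 was off. Some families were led by 1 member: Runx3 held 84.4% ± 3.02 and Gata3 82% ± 4.61 of the FPKM of their families. Gata1, an erythroid factor, was next in its family at 4.04, 5.44 and 5.47 FPKM, while Gata4, Gata5 and Gata6 were listed at 0. Dnmt1, the maintenance DNA methyltransferase, stood at 69.1 ± 11.4 FPKM. Of the TET enzymes that remove DNA methylation, Tet3 stood at 13 ± 1.6, Tet2 at 4.08 ± 0.41 and Tet1 at 0.72 ± 0.253 FPKM.

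Glycolysis was well represented, with both high and silent members. Of 33 glycolytic genes 27 were expressed and 9 reached 100 FPKM. Ldha, which turns pyruvate to lactate, led at 711, 999.9 and 774 FPKM, rank 116. It held 98.2% ± 0.292 of the lactate dehydrogenase FPKM, with Ldhb at 15.5, 15.7 and 14.6 FPKM and the germ cell form Ldhc listed at 0. Pkm stood at 519, 702 and 621 FPKM and Gapdh at 379.6, 613 and 387 FPKM. Both were highest in replicate 2, as was Ldha, and the list summed to 3326, 4622 and 3912 FPKM. Gapdh and Ldha have many processed pseudogenes, so their levels are uncertain. At the entry of the pathway Hk1 stood at 63, 64.5 and 57.2 FPKM and Hk2, the inducible hexokinase, at 1.98, 3.81 and 2.97 FPKM. Hk1 held 92.8% ± 0.569 of the hexokinase FPKM. The glucose transporters Slc2a3 (14.6, 19.2 and 25.8 FPKM) and Slc2a1 (14.3, 17.9 and 17.8 FPKM) overlapped. The lactate exporter Slc16a3 (MCT4) stood at 16.7, 23.4 and 24.2 FPKM. Slc2a4, the insulin-regulated transporter, and the liver enzyme Pklr were off.

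Mitochondrial genes were the most abundant metabolic group. The 13 mitochondrially encoded proteins held 8.6% of the summed protein-coding FPKM. Of 76 nuclear genes of the respiratory chain 73 were expressed, with a median of 109.8 FPKM. The tissue-restricted forms Cox8b and Cox4i2, known from muscle and lung, were off. Of 28 genes of the tricarboxylic acid cycle 27 were expressed, led by Mdh2 at 180.0 ± 14.8 FPKM, while Pck1, a gene of gluconeogenesis, was off. Fatty acid oxidation was lower, with 19 of 21 genes expressed and a median of 22.2 FPKM. Cpt1a, its entry enzyme, stood at 21.4, 17.2 and 15.9 FPKM and Hadha, the mitochondrial trifunctional protein, at 61.7 ± 2.62 FPKM. Of lipid and cholesterol synthesis 27 of 28 genes were expressed, with the desaturase Scd2 at 161 ± 23.5 FPKM. Phgdh, the first enzyme of serine synthesis, stood at 54.7, 89.9 and 54.7 FPKM with replicate 2 high. Slc1a5, a glutamine transporter, stood at 79.2, 79.7 and 85.7 FPKM. Of the regulators, Hif1a stood at 81.5 ± 4.41 FPKM, while Ppara, Pparg and Ppargc1a were off.

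**Figure D4:**
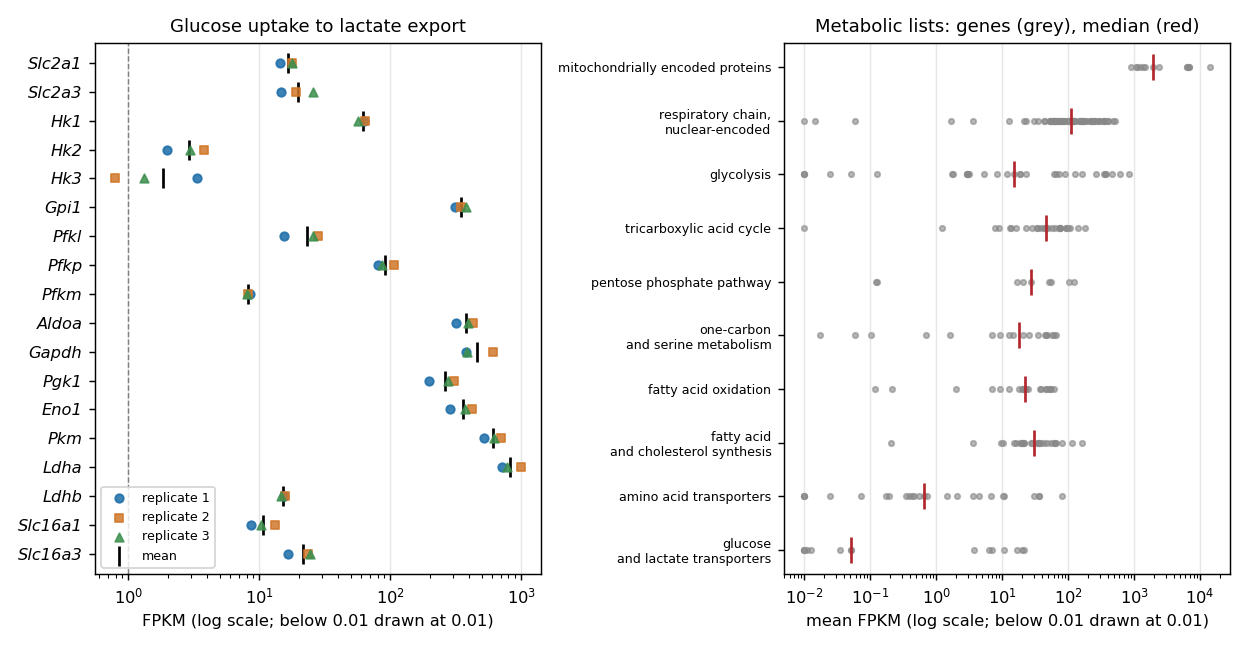
Left, FPKM in each wild type library (x, log scale) from glucose uptake to lactate export, with the mean as a black bar and a dashed line at 1 FPKM; Hk1 lies above Hk2 and Ldha above Ldhb in every library. Right, mean FPKM (x, log scale) of each gene (grey) of 10 metabolic lists with the list's median (red); values below 0.01 are drawn at 0.01.

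Proliferation genes were expressed in 39 of 41 cases, with a median of 58.4 FPKM. Pcna, the replication clamp, stood at 226, 305 and 186 FPKM and Top2a at 256, 246 and 179.9 FPKM. Mki67 (Ki-67) stood at 75.5, 73.5 and 59.9 FPKM. All 3 were lowest in replicate 3, and the list summed to 2875, 3129.8 and 2254 FPKM. Of the D-type cyclins Ccnd2 (58.6 ± 4.3 FPKM) and Ccnd3 (54.3 ± 7.6 FPKM) overlapped and Ccnd1 was low at 0.355 ± 0.139 FPKM. The inhibitor Cdkn1a (p21) stood at 5.38, 18.8 and 4.38 FPKM, with replicate 2 high. Ribosomal proteins held 25% of the summed FPKM. Of 29 interferon-stimulated genes 25 were expressed, but not evenly: Ly6e stood at 387 ± 45.7 and the GTPase Ifi47 at 256 ± 4.44 FPKM, whereas the antiviral genes Rsad2 and Mx1 stood at 0.635 ± 0.151 and 0.993 ± 0.341 FPKM. Cytotoxic granule genes split in a like way. The proteoglycan Srgn stood at 293 ± 29.4, Ctsw at 248, 132 and 123 and Nkg7 at 67 ± 13 FPKM, while perforin (Prf1) stood at 1.15, 1.63 and 2.03 FPKM. Of 9 granzymes Gzmb and Gzmc were expressed, and Gzmd, Gzme, Gzmf and Gzmg were off.

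Markers of other lineages were counted in 25 lists with 123 different genes. Of these 60 (48.8%) were off, 29 were expressed and 34 lay between, beside 25.4% off among the 17281 genes with a row. The off markers include 22 listed at 0. The 6 stromal, 3 hepatic and 4 kidney markers in the table were all off, among them Col1a1, Alb and Nphs1. Of erythroid markers 5 of 6 were off, the globin genes among them, and Klf1 stood at 0.0447, 0.088 and 0.16 FPKM. Ncr1 (NKp46), which defines NK cells, was listed at 0, and Klrb1c (NK1.1) stood at 0.126, 0.0727 and 0.0692 FPKM. Klrk1 (NKG2D), which some T cells carry too, stood at 13.2, 6.3 and 4.33 FPKM. Of the 6 NK markers 2 were expressed, Klrk1 and Eomes (6.93 FPKM). Klrd1, an NK receptor gene outside that list, was high, with a mean of 84.8 FPKM that was 70.3 FPKM without replicate 1. Elane, Rag2, Ptcra, Tek and Krt5 were also listed at 0. So were Myod1, Olig2 and Apoa1, from muscle, glia and liver. Of the 8 markers above 10 FPKM, 3 are listed for a tissue or for plasma cells but are known in other cells too: Pecam1 (CD31) stood at 49.7 ± 7.15, Mbp at 35.9 ± 1.37 and Xbp1 at 21.3 ± 3.04 FPKM. The others were Lyz2, Cd8b1, Cd79b, Cd79a and Cd8a.

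Markers of B cells, CD8 T cells and myeloid cells were present in each library. Of 8 B cell markers 7 were expressed, led by Cd79b at 9.86, 14.3 and 18.1 FPKM and Cd79a at 7.96, 11.4 and 16.2 FPKM, chains of the B cell receptor. Ms4a1 (CD20) stood at 3.49, 5.48 and 6.17 FPKM. Each of these 3 was lowest in replicate 1 and highest in replicate 3, and the list summed to 30.4, 45.2 and 58.5 FPKM. The count stayed at 7 without any 1 library. Cd8a stood at 11.7, 9.56 and 8.8 FPKM and Cd8b1 at 30.1, 23.1 and 23.2 FPKM, against 343 FPKM for Cd4. Of 8 macrophage and monocyte markers 5 were expressed, led by the lysozyme Lyz2 at 84.5, 14.5 and 30.9 FPKM. Its mean of 43.3 FPKM was 22.7 FPKM without replicate 1, and the list's count was then 4, against 6 without replicate 2. Cd68 stood at 14.5, 3.3 and 8.14 FPKM (5.72 without replicate 1) and Cd14 at 12.8, 3.42 and 6.26 FPKM (4.84 without it). In the neutrophil list S100a8 and S100a9 stood at 14, 0.603 and 3.12 FPKM and at 10.2, 0.469 and 0.933 FPKM. Without replicate 1 their means of 5.9 and 3.85 FPKM were 1.86 and 0.701 FPKM, and 1 of 7 neutrophil markers was expressed in place of 2. The rest of that list was near the floor and did not share this pattern throughout. Without replicate 1 the means of Camp and Ly6g, 0.11 and 0.0691 FPKM, were 0.13 and 0.104 FPKM. Those of Ngp and Mpo, 0.0583 and 0.0138 FPKM, were 0 and 0.00573 FPKM, and Elane was listed at 0. Dendritic markers were expressed in 0 of 6 cases, with Itgax (CD11c) at 0.804, 0.205 and 0.458 FPKM. In a bulk library, few cells of a type and little RNA per cell cannot be told apart.

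**Figure D5:**
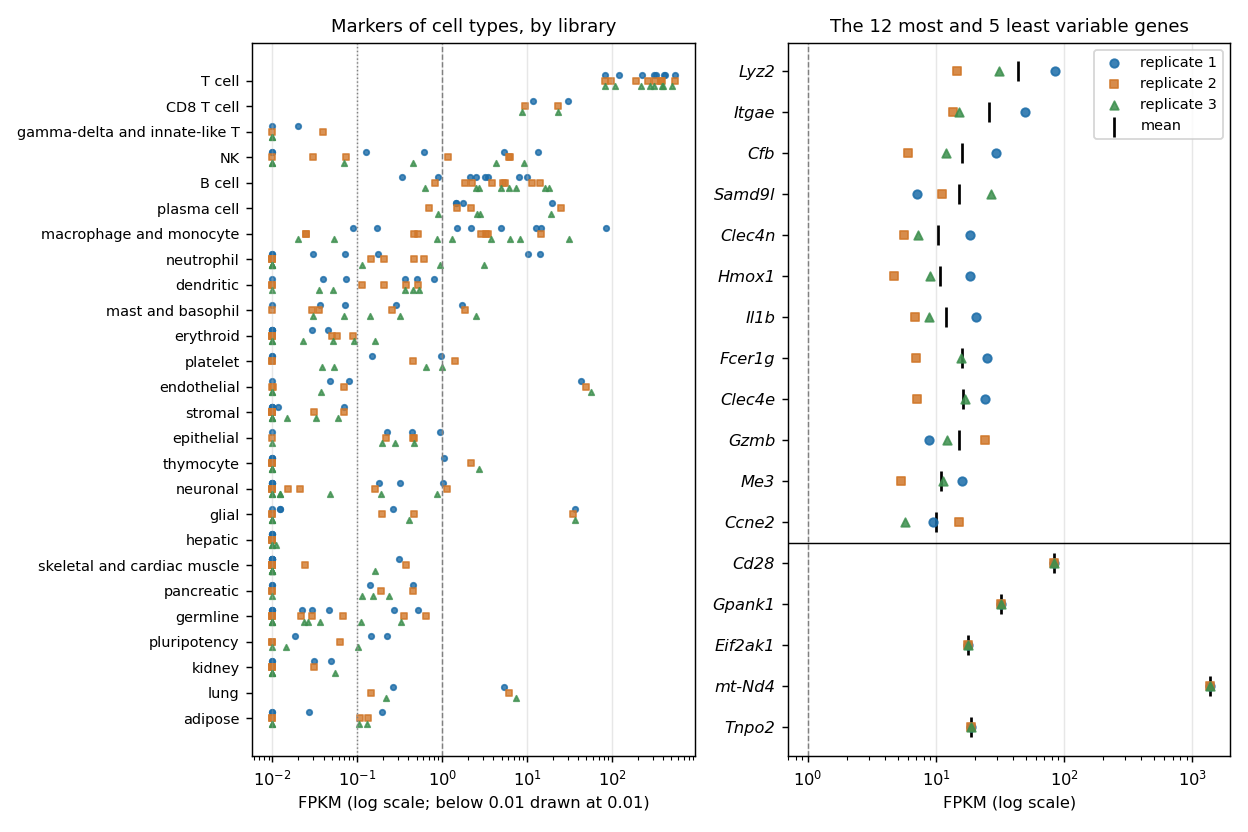
Left, FPKM in each wild type library (x, log scale; below 0.01 drawn at 0.01) of markers of T cells and of 25 other lists, with lines at 1 (dashed) and 0.1 FPKM (dotted); replicate 1 (circles) is highest for each of the 8 macrophage and monocyte markers. Right, the 12 most and 5 least variable genes at 10 FPKM or more, with replicate 1 high in Lyz2 and Itgae and the 3 libraries on 1 point for Cd28.

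Large gene families of other tissues were nearly silent where they had rows. Only 100 of 1135 olfactory receptor genes had a row, and 94 of the 100 were off. Of 41 collagens with a row 31 were off. None of 25 Hox genes was expressed, and 20 were off. By contrast 278 of 383 Zfp zinc finger genes were expressed, at a median of 3.71 FPKM. By chromosome the expressed share ran from 65.5% on chromosome 19 to 51.3% on chromosome 14 among the autosomes. It was 50.2% on X, and 5 of 54 genes on Y were expressed.

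Most genes varied little between the libraries. The median CV of expressed genes was 0.0995, and 127 of 10265 (1.24%) had a CV of at least 0.5, a count of 76 without replicate 1. At 10 FPKM or more 14 genes had such a CV. Leaving out transcripts below 500 bases and predicted, clone-named or joined symbols, 10 of 6122 genes had it. Replicate 1 lay farthest from the middle value in 6 of the 10. Lyz2 and Itgae led, followed by Cfb, a complement factor, at 29.5, 5.98 and 12 FPKM, whose mean of 15.9 FPKM was 9.01 without replicate 1. Clec4n, Hmox1, Il1b, Fcer1g and Clec4e, genes known from myeloid cells, were highest in replicate 1 and lowest in replicate 2. Their values were 18.4, 5.6 and 7.26 FPKM for Clec4n, 18.4, 4.69 and 8.93 for Hmox1, 25.2, 6.93 and 15.7 for Fcer1g and 24.2, 7.1 and 16.9 for Clec4e. Without replicate 1 the means of Clec4n, Hmox1 and Il1b, at 10.4, 10.7 and 12 FPKM, were 6.43, 6.81 and 7.82 FPKM. Itgae is not one of the macrophage markers, yet replicate 1 was likewise its high library. Samd9l, an interferon-stimulated gene, was instead high in replicate 3 at 7.1, 11.1 and 27 FPKM, a mean of 15 that was 9.08 without it. Gzmb was high in replicate 2. The most even genes after Cd28 were Gpank1, Eif2ak1, mt-Nd4 and Tnpo2, with mt-Nd4 at 1376, 1379 and 1374 FPKM.

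CpG-rich start regions differed in share between the classes of level. A RefSeq window of 300 bases, 250 before and 50 after the start, was matched by symbol for 13298 of 17281 genes (77.0%), and the share of genes is given as a description with no test. A window was called CpG-rich where observed over expected CG was at least 0.6. Of genes listed at 0 20.5% were CpG-rich, of those from 1 to below 10 FPKM 69.8%, of those from 10 to below 100 FPKM 81.1%, and of those at 1000 FPKM or more 88.6%. In the class from 100 to below 1000 FPKM it was 71.9%. Some lists departed from the class of their level: of 20 T cell receptor and proximal signalling genes, with a median of 156 FPKM, 20% were CpG-rich. For cytokines the share was 13.3% of 45. For ribosomal proteins it was 88.1% of 59, near that of the class at 1000 FPKM or more. That class has 70 windows and holds many of the same genes, so the 2 shares are not independent. Motifs were searched on both strands as exact letters. TATAAA was present in 8.91% of all windows, in 37.8% of cytokine windows, in 36% of 25 chemokine windows and in 1.96% of 51 cytokine receptor windows. The Foxp3 and Il2 stretches printed above hold it, and those of Il5, Il2ra and Ctla4 do not. CGGAAG, a core that ETS factors can bind, was present in 26.4% of all windows and in 67.8% of those of ribosomal proteins. GGGCGG was present in 56.3% and CCAAT in 38.4% of all windows, and for cell cycle genes the share with CCAAT was 64.7% of 34. A match is a run of letters and shows no bound factor.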

How the data were processed

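The deposited table gives FPKM values per gene identifier, made by the authors with TopHat2, Cufflinks and Cuffdiff on GRCm38.p4, per the submitters' processing notes; versions, settings, annotation and strand were not given in the sources used here. RNA was total RNA from a Qiagen kit in a standard Illumina library, per the labels' protocols. The 3 wild type columns were used as deposited. Identifiers were matched to GENCODE M21, which held 24876 of 25759 (96.57%), and 17281 protein-coding genes were kept. Depth was read from the smallest steps of FPKM times transcript length over 4318 genes. Protein-coding genes held 4.48%, 6.03% and 5.04% of all summed FPKM, since short RNAs and 2 identifiers without an entry took most of it. Gene lists (103, with 1120 of 1175 entries in the table) and members were chosen with earlier results of these data known. Genes were named by rule, 696 in all. The rule took a fixed set chosen by hand, which alone brought in Ebi3, Il2, Il4, Il17a, Klrd1, Mki67 and Nrp1. It also took the 4 markers, the 15 highest, up to 6 highest and 4 lowest of each list, families, and the 12 most and 5 least variable. Ahr, B2m, Bach2, Ccdc22, Cdkn1a, Cx3cr1, Cxcl3, Cxcl16, Ifnar2, Il6, Il13, Il17f, Il19, Itga4, Klf2, Lrrc32, Prf1, S1pr1, Tigit, Tnf, Tnfsf8, Tnfsf11, Tslp and the genes of the closing section fall outside it and were chosen after their values were seen. Listed symbols without a row were not analysed here, and some results are not reported here. No test was run, since there is 1 group. The depth estimate and the CV were tried on simulated data. These held whole fragments and the same transcript lengths as the estimate, so they do not test the depth read from the deposited values. Python 3.11.15, numpy 2.4.6, pandas 2.3.3, scipy 1.17.1 and matplotlib 3.10.9 were used.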

Additional observations from a re-analysis of the deposited data

How the results depend on the processing

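Alternatives changed the scaling (a fixed sum per library, upper quartile, quantile), the genes, the mean, the level of expression and the libraries. The count of expressed genes stayed between 9526 and 13245 around 10265, and expressed markers of other lineages between 22 and 33 around 29. The count listed at 0, 1620, was 3284 over every identifier in the table, with or without a GENCODE entry. It was 2514 by the median and 3329 by the lowest library. The median CV of 0.0995 was 0.110 over every identifier. It was 0.0702 to 0.0890 with 1 library left out, where 2 values give each CV. The count with a CV of at least 0.5, 127, was 663 over every identifier and 70 by the lowest library. It was 203 at 0.5 FPKM and 81 at 2 FPKM. With 1 library left out it was 76 to 162, with 76 without replicate 1. The share of the 100 highest genes, 41.7%, was 94.0% over every identifier and 40.1% with transcripts of at least 500 bases. Of all summed FPKM, the 2 highest identifiers without an entry held 58.9%, 66.5% and 54.3%. Of 696 named genes the percent of genes below moved by more than its SD for 413 over every identifier (and 76 of 103 lists). It moved for 28 of 688 with transcripts of at least 500 bases, 1 under each scaling and 4 by the geometric mean. It moved for 70 by the median, 165 by the lowest library and 19, 24 and 27 without replicates 1, 2 and 3. The cause of these shifts was not tested. The counts of leukocyte markers without each library were chosen after seeing the data. No paired analysis was possible because the wild type libraries form 1 group. Low values are limited by depth: 0.0506 FPKM in replicate 1 rests on 3 fragments for a transcript of 2000 bases. Off genes between that level and 0.1 FPKM rest on few fragments. A gene listed at 0 is not shown to be absent, and depth need not be the reason for the 0. Among protein-coding genes, 5 were at 0 in 1 or 2 libraries and at least 1 FPKM in another. Of these, 1 had a longest transcript of at least 500 bases. Whether a listed 0 came from depth or from how the value was computed was not tested.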

Other observations

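Outside the protein-coding genes, T cell receptor genes were high over many segments and immunoglobulin V segments were low, while the constant gene Ighm was not low. The T cell receptor constant genes stood at 1097, 1144 and 1094 FPKM for Trac (chr14:54220521-54224206), 835, 843 and 831 for Trbc1 and 1170.3, 1119 and 1152 for Trbc2. Of 98 Trav segments 97 were at 1 FPKM or more, and so were 21 of 21 Trbv segments, with Trbv13-2 the highest at 330.5 FPKM. The gamma segment Trgv2 was at 0.292 FPKM. Of 5 delta (Trdv) segments 3 were at 1 FPKM or more, with Trdv1 the highest at 5.6 FPKM. Of immunoglobulin segments 30 of 101 Ighv and 44 of 95 Igkv were at 1 FPKM or more, and none reached 10. Summed over Igkv the level was 63, 139 and 134 FPKM, lowest in replicate 1 as the B cell markers were. Ighm stood at 467, 438 and 448 FPKM, which did not follow that order, while Igkc stood at 57.6, 102 and 107 FPKM and did. Segments within a family are near-identical, so single segment values are uncertain.

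The long RNA Gas5, a host of small nucleolar RNAs that is known from growth-arrested cells, stood at 556, 694 and 626 FPKM. Neat1, the scaffold of paraspeckles, stood at 101, 59.6 and 91.9 FPKM and Malat1 at 33.8, 42.5 and 55 FPKM. The Y-linked genes Eif2s3y, Ddx3y, Kdm5d and Uty stood at 79.7, 78.3 and 78.4 FPKM, 19.7, 23.2 and 20.7 FPKM, 8.47, 10 and 8.96 FPKM and 7.9, 8.33 and 8.57 FPKM, and Xist, which female cells transcribe from the inactive X, at 0, 0.095 and 0 FPKM. The 2 identifiers without an entry in GENCODE M21 that were highest had FPKM values far above any protein-coding gene and are given no name here.

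Several of the most uneven genes after the myeloid ones were high in replicate 2: the mitochondrial chaperone Hspd1 stood at 65.7, 136 and 86 FPKM and the prohibitin Phb at 44.5, 103 and 57.3 FPKM. Ctsw, Xcl1 and Socs1 were instead high in replicate 1, with Socs1, an inhibitor of cytokine signals, at 47.4, 24 and 24.8 FPKM. The cause of these differences was not tested.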
